A study of Homo sapiens with 4 samples.

Results

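Interferon-stimulated genes are the antiviral genes that cells switch on when interferons, or foreign nucleic acids sensed inside the cell, are detected. A fixed list of 39 such genes was followed in HeyA8-MDR cells, and 38 of them had a named feature among the 21448 features of the array. The members were taken by gene symbol, with the brightest feature standing for a gene, and each of the 38 had a single feature. STAT2, a signal transducer of type I interferon, had no feature under that symbol and was not analysed here.

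HeyA8-MDR is a multidrug-resistant human ovarian carcinoma line, here grown with 15% serum and 300 ng/ml paclitaxel. By its design text, the study compared 2 arrays of cells given an inhibitor of miR-204-5p with 2 arrays of cells given a control microRNA inhibitor. Both groups therefore carried the drug selection and both received an inhibitor oligonucleotide. No group without an oligonucleotide is among the samples, so a response common to both inhibitors cannot be seen in this comparison. In the treatment field all 4 samples, controls included, carry the miR-204-5p inhibitor, which goes against the control label of 2 of them. The groups were taken from the titles, of which 2 carry miR204, together with the design text, which names a control inhibitor. How the oligonucleotide was delivered, when the cells were collected and whether replicates were separate cultures are not given in the sources used here, so p-values rest on differences between arrays that may be no more than technical. The median feature read 5.59 and 5.61 log2 units on the inhibitor arrays and 5.65 and 5.68 on the control arrays. The number of arrays limits the precision. Fewer cells of a type and less RNA per cell cannot be told apart in such bulk samples.

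Type I interferons bind the IFNAR1 and IFNAR2 receptor pair, whose kinases JAK1 and TYK2 activate signal transducers, STAT2 among them. STAT2 joins IRF9 in the complex ISGF3, which binds an element called the ISRE in the promoters of antiviral genes. Type II interferon acts through a different element, the GAS. Oligonucleotides brought into cells can in principle be met by RNA sensors such as RIGI and IFIH1, by endosomal Toll-like receptors or by the DNA sensor CGAS.

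The inhibitor is directed against miR-204-5p, whose mature sequence is shown to mark the seed through which the microRNA finds its targets, next to miR-211-5p, which has the same seed (bases 2 to 8, in capitals) and differs at 2 of 22 bases. Both sequences are from RefSeq on GRCh38.p14, with miR-204-5p at chr9:70810031-70810052 and miR-211-5p at chr15:31065095-31065116, each on the minus strand.
hsa-miR-204-5p: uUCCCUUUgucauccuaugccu
hsa-miR-211-5p: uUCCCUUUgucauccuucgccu

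No shared direction was called among the interferon-stimulated genes. Of the 38, 19 had a higher and 19 a lower mean in the inhibitor arrays than in the control arrays, and their median log2 difference was -0.0025. Over all features the median difference was -0.07, and 40.2% of features were higher. The even split depended on the scaling of the arrays. After quantile normalization 24 members were higher (median 0.0831, against 49.4% of all features higher), after cyclic loess 26 (median 0.093, against 50.4%) and with equal array medians 24 (median 0.0625, against 49.0%). In these 3 scalings each member that changed sign turned from lower to higher. In limma with Benjamini-Hochberg adjustment over all features, 0 members passed an adjusted p of 0.05 in the higher direction, where 0.0513% of all features did, and 0 passed in the lower direction, where 0% did. At an unadjusted p under 0.05 there were 7 members, or 18.4%, against 17.9% of all features. They were 4 members higher in the inhibitor arrays (IFIT2, IRF9, OAS1 and CMPK2), against 5.11% of all features, and 3 lower (SAMD9, DDX60 and PSMB9), against 12.8% of all features.

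The 95% interval of the difference in array values lay within 2-fold in either direction for 34 of the 38 members, but within 1.5-fold for only 18. Of the 34, 12 were members in the dimmest 25% of features, for which an interval on array values does not bound the fold of the transcript. The interval reached above 2-fold higher for IFIT2 and IRF9 and beyond 2-fold lower for OASL and EPSTI1, of which EPSTI1 is also dim. The 13 dim members were IFIT1, OAS1, OAS2, MX1, HERC5, USP18, IFIH1, BST2, RSAD2, CMPK2, IFI44, IFI44L and EPSTI1. A miss of the threshold does not show that a gene had equal levels in both groups.

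**Figure D1:**
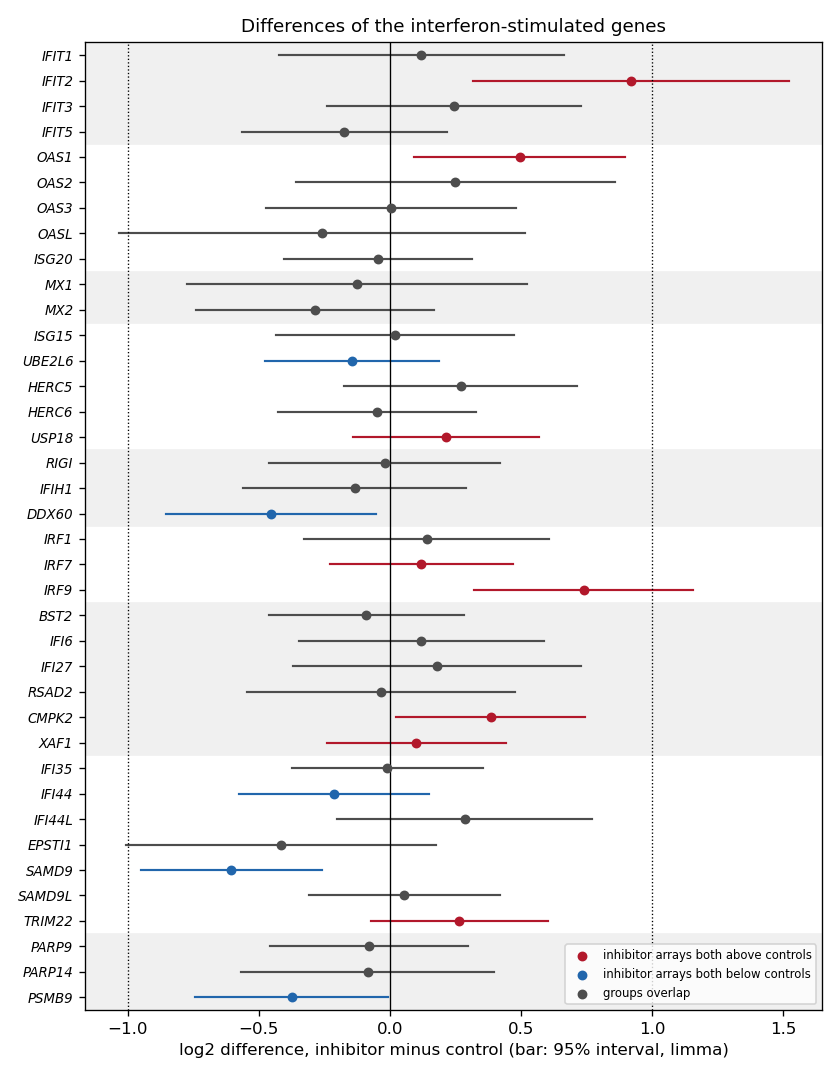
Log2 difference (inhibitor minus control, horizontal axis) of each of the 38 measured interferon-stimulated genes, with its 95% interval from limma as a bar, grouped by role in shaded bands from the IFIT family at the top to PSMB9 at the bottom; dotted lines mark 2-fold. Red marks genes with both inhibitor arrays above both controls, blue those with both below, and grey those that overlap. IFIT2 (0.92) and IRF9 (0.74) lie farthest to the right and SAMD9 (-0.605) farthest to the left, and 34 intervals lie between the dotted lines.

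The IFIT proteins bind foreign RNA and block its translation. IFIT2 had the largest difference of the list, with 6.46 and 5.69 log2 units in the inhibitor arrays against 5.10 and 5.21 in the control arrays. Both inhibitor arrays lay above both controls, but they were 0.77 apart, a gap nearly as wide as the difference between the groups. IFIT2 was thus 1.89-fold higher (log2 difference 0.92, SE 0.253, 95% interval 0.319 to 1.52), with an adjusted p of 0.181 in limma. Leaving out inhibitor array 1 gave 0.535 for IFIT2, and leaving out inhibitor array 2 gave 1.305. IFIT3, the binding partner of IFIT1 and next to IFIT2 in the genome, read 6.52 and 6.52 in the inhibitor arrays against 6.0 and 6.55 in the control arrays. IFIT1, the cap-sensing member, read 2.96 and 3.48 against 2.89 and 3.31. For IFIT1 and IFIT3 the groups overlapped, and IFIT5 also overlapped with a log2 difference of -0.175.

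The oligoadenylate synthetases sense double-stranded RNA and make the short oligoadenylates that activate RNase L. OAS1 had 3.57 and 3.88 log2 units in the inhibitor arrays and 3.14 and 3.32 in the control arrays, without overlap. Its log2 difference was 0.495 (SE 0.169, 95% interval 0.0921 to 0.898), with an adjusted p of 0.221 in limma. All 4 values lie within the dimmest 25% of features, which ends at 3.965, and without detection calls a gene this dim cannot be told from one that is not expressed. OAS2 read 2.88 and 3.67 in the inhibitor arrays against 3.02 and 3.03 in the control arrays. The inhibitor arrays of OAS2 fell on both sides of the controls. OAS3 read 7.04 and 6.54 against 6.69 and 6.88, a difference of 0.005.

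OASL, a catalytically inactive relative that helps RIGI signalling, had 4.52 and 5.59 log2 units in the inhibitor arrays against 5.22 and 5.41 in the control arrays. That gap of 1.07 between the inhibitor arrays was the widest of any member. The dynamin-like GTPase MX1, which blocks influenza virus, gave 3.23 and 4.09 against 3.75 and 3.82, and here too the inhibitor arrays lay on either side of the controls. MX2, which restricts HIV, gave 5.14 and 4.69 against 5.11 and 5.29, a difference of -0.285 (SE 0.191). The exonuclease ISG20 differed by -0.045.

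ISG15 is a ubiquitin-like protein that is among the most strongly induced products of interferon signalling. It read 5.43 and 5.79 log2 units in the inhibitor arrays and 5.75 and 5.43 in the control arrays, so that the groups covered almost the same range and differed by 0.02 (SE 0.190). The 95% interval of -0.433 to 0.473 held the difference of ISG15 within 1.5-fold either way. UBE2L6, the enzyme that passes ISG15 to its ligase, read 8.0 and 8.02 against 8.17 and 8.14, lower without overlap by a small amount (-0.145, SE 0.139). USP18, which removes ISG15 and restrains the interferon receptor, read 3.31 and 3.50 against 3.23 and 3.15, higher without overlap (0.215, SE 0.149) but within the dimmest 25% of features. HERC5, the ligase for ISG15, differed by 0.27 and its neighbour HERC6 by -0.05, both with overlap.

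The 3 cytoplasmic RNA sensors had lower means in the inhibitor arrays, as had 12689 of all 21448 features, and 0 of the 3 passed. RIGI read 5.99 and 5.56 log2 units in the inhibitor arrays and 5.72 and 5.87 in the control arrays, with overlap and a difference of -0.02 (95% interval -0.462 to 0.422). After quantile normalization, cyclic loess and equal array medians the difference of RIGI was above 0 (0.0537, 0.0587 and 0.045). IFIH1, also called MDA5, differed by -0.135 with overlap and lies in the dimmest 25% of features. DDX60, a helicase reported to assist RIGI, read 3.85 and 3.76 against 4.43 and 4.09. Both inhibitor arrays of DDX60 lay below both controls, the log2 difference was -0.455 (SE 0.168, 95% interval -0.855 to -0.0546), and the adjusted p was 0.238 in limma. The inhibitor mean of DDX60, 3.805, lies within the dimmest 25% of features, so the size of this difference is uncertain.

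Among the transcription factors, IRF9 was the member closest to the threshold. It read 6.34 and 6.61 log2 units in the inhibitor arrays against 5.88 and 5.59 in the control arrays, a mean of 6.475 ± 0.191 against 5.735 ± 0.205 (SD, n = 2 each). The groups did not overlap, and the difference exceeded the gap between arrays in each group. IRF9 was 1.67-fold higher (log2 difference 0.74, SE 0.175, 95% interval 0.323 to 1.16), with an adjusted p of 0.161 in limma. IRF7, the factor that amplifies interferon-alpha production, read 5.16 and 5.12 against 5.11 and 4.93. IRF1, which also answers to NF-kappaB and type II interferon, read 6.52 and 6.04 against 6.23 and 6.05. IRF7 was higher without overlap by only 0.12, and IRF1 overlapped at 0.14.

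The membrane and mitochondrial effectors gave small differences. CMPK2, a mitochondrial nucleotide kinase, read 3.22 and 3.43 log2 units in the inhibitor arrays against 2.90 and 2.98 in the control arrays, higher without overlap by 0.385 (SE 0.151, adjusted p 0.257 in limma) but in the dimmest 25% of features. RSAD2 (viperin), next to CMPK2 and a maker of chain-terminating nucleotides, read 3.50 and 4.07 against 3.72 and 3.92, with overlap. IFI6, a survival factor of mitochondria and the endoplasmic reticulum, read 7.41 and 6.99 against 6.93 and 7.23. IFI27 differed by 0.18, the virus tether BST2 by -0.09 and the apoptosis factor XAF1 by 0.10, and of these XAF1 alone had groups without overlap.

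SAMD9, a cytoplasmic restriction factor of poxviruses that also limits growth, was the member with the largest lower value. It read 7.75 and 7.59 log2 units in the inhibitor arrays against 8.27 and 8.28 in the control arrays, a mean of 7.67 ± 0.113 against 8.275 ± 0.00707 (SD, n = 2 each). The log2 difference was -0.605 (SE 0.145, 95% interval -0.95 to -0.260), with an adjusted p of 0.163 in limma, and the difference was wider than the gap in either group. SAMD9L, its paralog and neighbour, read 5.79 and 6.03 against 5.87 and 5.84, with overlap. TRIM22, an antiviral ubiquitin ligase, read 7.10 and 7.20 against 6.90 and 6.87, higher without overlap by 0.265 (SE 0.141). IFI44 was lower without overlap by a log2 difference of -0.215, while its neighbour IFI44L differed by 0.285, IFI35 by -0.01 and EPSTI1 by -0.415, all 3 with overlap.

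PSMB9 is the interferon-inducible catalytic subunit that turns the proteasome into the immunoproteasome. It read 6.53 and 6.28 log2 units in the inhibitor arrays and 6.77 and 6.79 in the control arrays, lower without overlap by a log2 difference of -0.375 (SE 0.154, 95% interval -0.742 to -0.00772, adjusted p 0.273 in limma). The ADP-ribosyltransferases PARP9 and PARP14 differed by -0.08 and -0.085, with overlap.

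**Figure D2:**
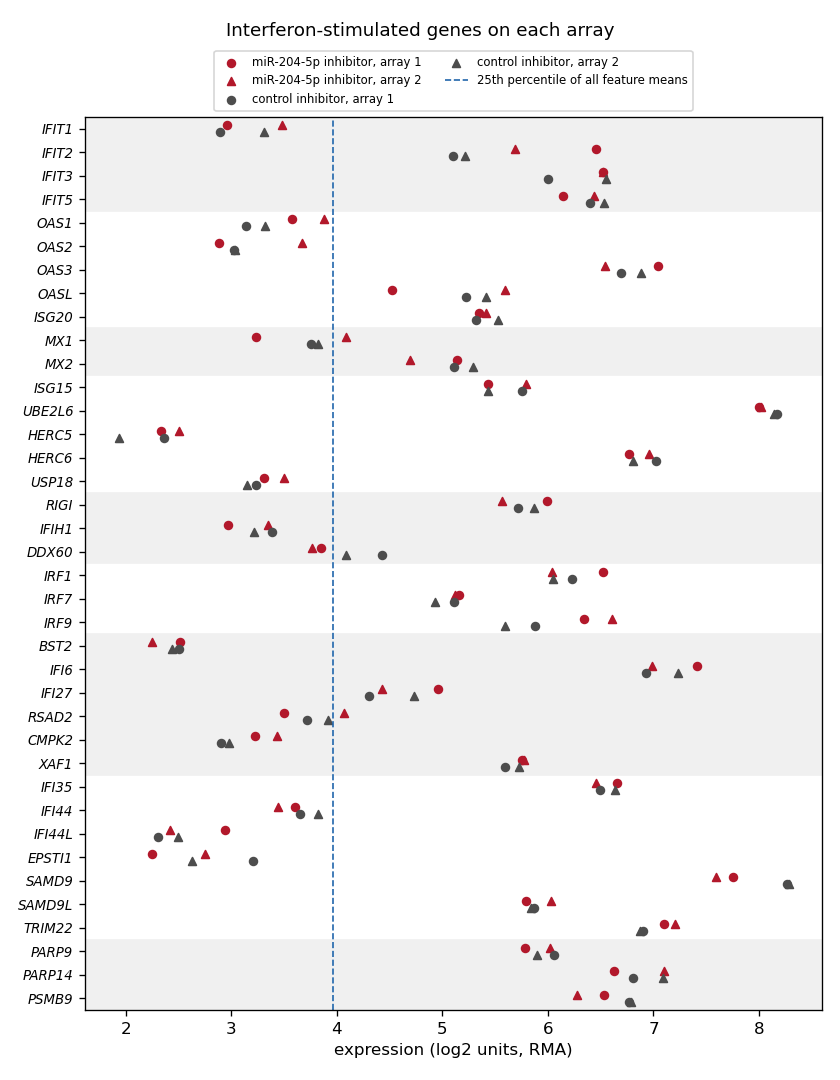
Log2 expression of each interferon-stimulated gene on the 2 inhibitor arrays (red, upper row of each gene) and the 2 control arrays (grey, lower row), with circles for array 1 and triangles for array 2; the dashed line is the 25th percentile of all feature means (3.965). Inhibitor points of OASL and MX1 lie on both sides of their controls, while those of IRF9 lie above and those of SAMD9 below.

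Counted over the list, the groups did not overlap for 13 of the 38 members, or 34.2%, against 50.3% of all features. They were 8 members with both inhibitor arrays above both controls, where 16.5% of all features stood, and 5 with both below, where 33.8% of all features stood. With 2 arrays against 2 an exact permutation test cannot give a p below 0.333, so no single gene was tested that way.

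Inhibitor arrays lay farther apart than control arrays for 27 of the 38 members, and for 13557 of all 21448 features. The median gap between arrays of a group was 0.285 log2 units in the inhibitor arrays and 0.18 in the control arrays over the members, and 0.21 and 0.13 over all features. A gap of over 0.5 was found for 8 members (21.1%) in the inhibitor arrays and 2 (5.26%) in the control arrays, against 14.7% and 3.13% of all features. For 27 of the 38 members the difference between group means was smaller than the wider of these gaps, as for 62.3% of all features. The other 11 members were IFIT2, IRF9, SAMD9, OAS1, DDX60, CMPK2, PSMB9, TRIM22, USP18, IFI44 and UBE2L6.

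**Figure D3:**
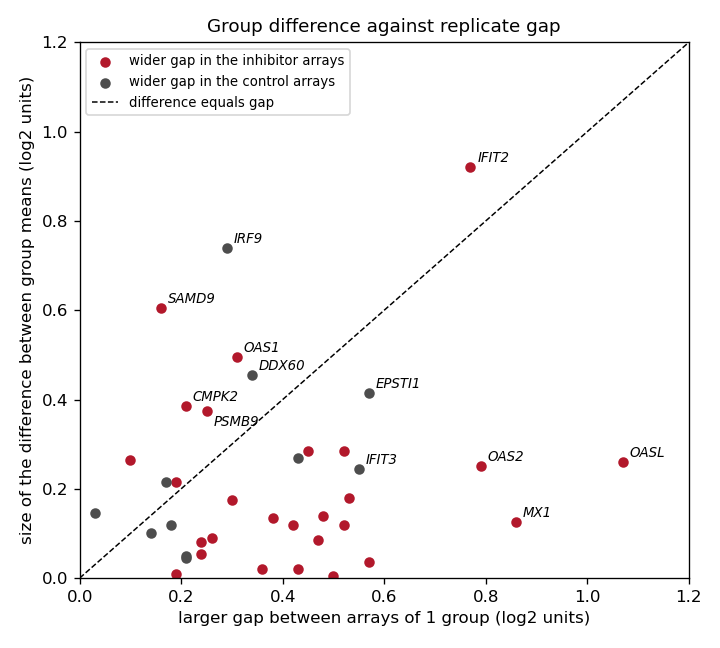
Size of the log2 difference between group means (vertical) against the wider gap between the 2 arrays of a group (horizontal) for the 38 members, red where the inhibitor arrays were farther apart and grey where the control arrays were; the dashed line marks equality. IRF9, SAMD9 and OAS1 lie above the line, and OASL, MX1 and OAS2 lie far to the right and below it.

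Settings of the test decided whether any member passed. When limma's variance prior was allowed to follow intensity, IFIT2 (adjusted p 0.0338) and IRF9 (0.0279) passed as higher and SAMD9 (0.0112) as lower, while 1.02% of all features passed as higher and 6.09% as lower. IRF9 also passed when the trend was combined with quantile normalization (adjusted p 0.0348), where 1.42% of all features passed as higher and 1.19% as lower. Over features above the median level IRF9 (0.0322) passed as higher and SAMD9 (0.0311) as lower, where 1.34% and 8.07% of those features did. Over the settings the adjusted p in limma went as low as 0.0279 for IRF9, 0.0338 for IFIT2 and 0.0112 for SAMD9. After quantile normalization without the trend it was 0.224 for IRF9, 0.274 for IFIT2 and 0.312 for SAMD9. In that setting 0 of all features passed. The direction of IRF9, IFIT2, OAS1 and SAMD9 was the same in each setting that kept the gene.

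**Figure D4:**
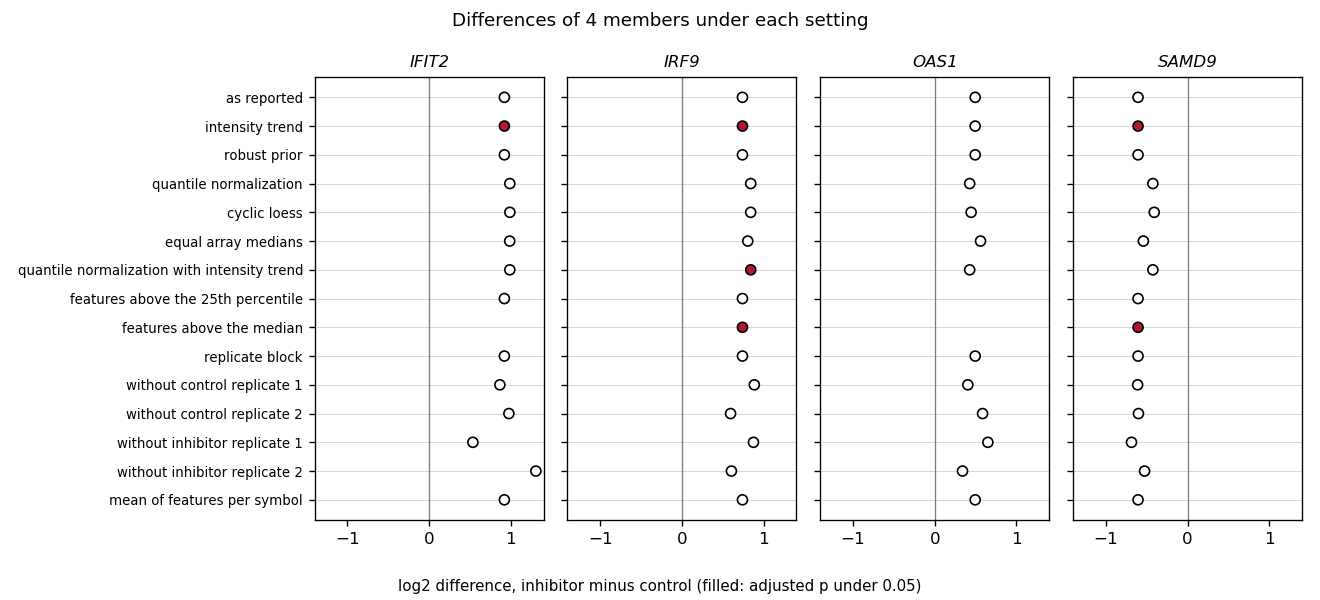
Log2 difference (inhibitor minus control, horizontal axis) of IFIT2, IRF9, OAS1 and SAMD9 as reported and under each of the 14 other settings, 1 row per setting, with filled points where the adjusted p was under 0.05. IFIT2, IRF9 and SAMD9 have filled points under some settings and OAS1 has none; a missing point means that the filter removed the gene.

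Promoters of the members are shown because the list is defined by a response that acts through promoter elements. RefSeq promoters on GRCh38.p14 (250 bases before to 50 after the start of transcription) were matched by symbol for 32 of the 39 listed genes. IFIT2, OAS2, OASL, MX2, USP18, IRF7 and TRIM22 had none in the table used. The ISRE core was searched as GAAA, any 2 bases and GAAA, and the GAS core as TTCNNNGAA, on both strands, and matches may overlap one another. The ISRE core was present for 20 of the 32 genes (62.5%), against 4.38% of all 27305 genes with a promoter and 3.57% of all 35116 promoters. The GAS core was present for 10 (31.2%), against 9.38% of genes and 7.66% of promoters. Below are IRF9 and OAS1, higher without overlap, DDX60 and SAMD9, lower without overlap, and ISG15, whose groups overlapped, 5′ to 3′ on the gene's strand with the matched bases in capitals.
IRF9, chr14:24161015-24161314, plus strand: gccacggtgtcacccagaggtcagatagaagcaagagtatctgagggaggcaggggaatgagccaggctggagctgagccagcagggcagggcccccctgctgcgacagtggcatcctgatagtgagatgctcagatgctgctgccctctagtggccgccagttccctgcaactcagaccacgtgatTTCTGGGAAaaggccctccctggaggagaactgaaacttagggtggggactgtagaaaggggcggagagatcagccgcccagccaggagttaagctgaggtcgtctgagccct
OAS1, chr12:112906712-112907011, plus strand: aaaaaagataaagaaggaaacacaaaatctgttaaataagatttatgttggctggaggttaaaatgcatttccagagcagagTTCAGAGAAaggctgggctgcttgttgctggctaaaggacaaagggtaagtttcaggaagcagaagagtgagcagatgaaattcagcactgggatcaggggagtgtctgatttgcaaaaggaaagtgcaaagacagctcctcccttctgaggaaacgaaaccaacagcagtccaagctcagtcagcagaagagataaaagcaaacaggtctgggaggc
DDX60, chr4:168318703-168319002, minus strand: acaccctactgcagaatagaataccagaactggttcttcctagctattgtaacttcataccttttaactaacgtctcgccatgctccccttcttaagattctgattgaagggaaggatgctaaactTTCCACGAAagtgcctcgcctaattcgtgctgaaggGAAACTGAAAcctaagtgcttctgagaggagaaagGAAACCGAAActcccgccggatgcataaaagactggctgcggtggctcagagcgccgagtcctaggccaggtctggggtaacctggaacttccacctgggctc
SAMD9, chr7:93117930-93118229, minus strand: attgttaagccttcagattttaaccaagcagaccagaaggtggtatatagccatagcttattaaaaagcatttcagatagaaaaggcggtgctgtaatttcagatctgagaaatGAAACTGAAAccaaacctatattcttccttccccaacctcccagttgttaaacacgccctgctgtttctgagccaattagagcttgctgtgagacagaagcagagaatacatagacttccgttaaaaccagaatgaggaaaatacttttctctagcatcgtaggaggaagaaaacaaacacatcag
ISG15, chr1:1013247-1013546, plus strand: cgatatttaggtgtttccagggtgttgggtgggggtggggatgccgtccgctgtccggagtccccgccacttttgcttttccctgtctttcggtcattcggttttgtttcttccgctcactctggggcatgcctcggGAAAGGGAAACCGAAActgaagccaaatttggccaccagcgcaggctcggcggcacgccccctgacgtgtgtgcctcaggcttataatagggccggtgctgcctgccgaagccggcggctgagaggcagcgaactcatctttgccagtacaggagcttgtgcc

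IRF9 and OAS1 each held 1 GAS core and no ISRE core of this spelling, DDX60 held 2 ISRE cores and 1 GAS core, SAMD9 held 1 ISRE core and ISG15 held 2 overlapping ISRE cores. Among the measured members with a promoter, 8 of 20 with the ISRE core were higher in the inhibitor arrays (median log2 difference -0.0625), and 6 of 11 without it were higher (median 0.055). A match is a description of the letters, and nothing follows from it about binding.

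The interferon genes themselves were also read. Of 22 listed, 21 were measured, with 8 higher and 12 lower in the inhibitor arrays and a median log2 difference of -0.01. Of the 21, 0 passed in either direction, against 0.0513% of all features as higher and 0% as lower. The means of 13 of the 21 lie in the dimmest 25% of features. IFNB1, the interferon made first in most non-immune cells, read 3.80 and 4.21 log2 units in the inhibitor arrays and 4.02 and 4.12 in the control arrays, with overlap (difference -0.065, SE 0.180). IFNA21, which has many near-identical paralogs that the probes may not separate, read 4.87 and 4.18 against 3.69 and 3.85 (difference 0.755, SE 0.237, adjusted p 0.205 in limma). Its control mean, 3.77, lies within the dimmest 25% of features, so the size of this difference is uncertain. The other members of the ligand list with the strongest statistics were IFNA10 (0.33), IFNA13 (-0.395) and IFNA17 (0.16), each uncalled and dim.

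The receptors and kinases carry the interferon signal to the nucleus. Of 9 measured genes of this group 0 passed in either direction, against 0.0513% of all features as higher and 0% as lower. The median log2 difference of the 9 was 0.015. IFNAR1 read 7.12 and 7.30 log2 units in the inhibitor arrays against 7.32 and 7.48 in the control arrays, and IFNAR2 read 7.51 and 7.81 against 7.90 and 7.90. Both chains were lower without overlap, by -0.19 (SE 0.153) and -0.24 (SE 0.161). JAK1 differed by -0.23 (SE 0.145) and TYK2 by 0.13 (SE 0.149), and IFNGR2, a chain of the type II receptor, by 0.41 (SE 0.161, adjusted p 0.258 in limma).

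Sensors and adaptors of foreign nucleic acids included 21 measured genes, of which 10 were higher and 11 lower. Of the 21, 0 passed, against 0.0513% of all features as higher and 0% as lower. TLR3, the endosomal receptor of double-stranded RNA, read 4.96 and 4.72 log2 units in the inhibitor arrays against 5.39 and 5.17 in the control arrays, lower without overlap (-0.44, SE 0.164). TLR7, an endosomal receptor of single-stranded RNA, read 3.32 and 2.76 against 3.52 and 3.84 (-0.64, SE 0.223), and these values lie in the dimmest 25% of features. ZC3HAV1, the zinc finger antiviral protein, differed by -0.445 (SE 0.144) and the adaptor TRAF3 by -0.295 (SE 0.139). EIF2AK2, the kinase PKR, differed by 0.16, the adaptor MAVS by -0.165, the kinase TBK1 by 0.17 and the transcription factor IRF3 by -0.245.

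Negative regulators and enzymes that keep the cell's own nucleic acids from being sensed formed a further list. Of 16 measured genes 13 were lower and 3 higher, with a median log2 difference of -0.225, where 40.2% of all features were higher. But 13 of the 16 lie above the median level, where 25.5% of features were higher and the median difference was -0.165. The median of the 16 was -0.0509 after quantile normalization and after cyclic loess. Of the 16, 0 passed in either direction, against 0.0513% of all features as higher and 0% as lower. RNASEH2B, a subunit of RNase H2, read 6.36 and 6.64 log2 units in the inhibitor arrays against 7.24 and 7.33 in the control arrays (-0.785, SE 0.160, adjusted p 0.144 in limma). ADAR, which edits double-stranded RNA, read 6.71 and 6.78 against 7.38 and 7.42 (-0.655, SE 0.140, adjusted p 0.150 in limma). Both genes were lower without overlap. SOCS1, the feedback inhibitor of JAK kinases, differed by -0.455 (SE 0.159), and TNFAIP3, a brake on NF-kappaB, was higher by 1.02 (SE 0.152, adjusted p 0.120 in limma).

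A wider set of 49 measured interferon-stimulated genes outside the 39 also gave 0 calls. Over all features 0.0513% were called higher and 0% lower. Of the 49, 14 were higher and 35 lower in the inhibitor arrays, where 40.2% of all features were higher. But 30 of the 49 lie above the median level, where 25.5% of features were higher and the median difference was -0.165. The median log2 difference of the 49, -0.12, became -0.0638 after quantile normalization and -0.0359 after cyclic loess. At an unadjusted p under 0.05 there were 0 higher, against 5.11% of all features, and 12 lower (24.5%), against 12.8%. Both shares are over features of all levels. NT5C3A, a nucleotidase, differed by -0.755 (SE 0.190), the secreted glycoprotein LGALS3BP by -0.59 (SE 0.158), TRIM14 by -0.54 (SE 0.155) and PML, the organiser of nuclear bodies, by -0.545 (SE 0.164), with adjusted p from 0.169 to 0.194 in limma. After quantile normalization with an intensity trend, 0 of this set passed as lower, against 6 with the trend alone.

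Of 6 chemokines typical of interferon signalling 0 passed, against 0.0513% of all features as higher and 0% as lower. CXCL10 read 2.46 and 2.23 log2 units in the inhibitor arrays against 2.29 and 2.57 in the control arrays, and CCL5 read 5.48 and 5.55 against 5.60 and 5.58. CXCL11 differed by 0.315, CCL8 by 0.175 and CXCL9 by 0.12. CXCL9, CXCL10, CXCL11 and CCL8 were all dim, and without detection calls genes this dim cannot be told from ones that are not expressed. Of 13 measured genes of class I antigen presentation 0 passed, against the same shares of all features, and 4 were higher and 9 lower. Of the 13, 11 lie above the median level, where 25.5% of all features were higher. The peptide transporter subunits differed in sign, TAP1 with 0.365 (SE 0.163) and TAP2 with -0.585 (SE 0.192), while the light chain B2M differed by 0.275 and the aminopeptidase ERAP2 by -0.275.

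NF-kappaB, which the same sensors can also switch on, drives another set of genes. Of 20 measured cytokine and feedback genes of that pathway 17 were higher in the inhibitor arrays, with a median log2 difference of 0.2975, where 40.2% of all features were higher, and 2 of them rose, IL6 and CXCL8, where 0.0513% of all features did. Both calls were lost after quantile normalization and with the replicate block, settings in which 0 of all features passed in either direction. IL6 read 6.87 and 7.06 log2 units in the inhibitor arrays against 4.24 and 3.83 in the control arrays, and CXCL8 read 9.50 and 9.60 against 8.06 and 8.03. The differences were 2.93 (adjusted p 0.0282) and 1.505 (adjusted p 0.0409) in limma. TRAF1, an adaptor of TNF receptors, differed by 0.715 (SE 0.154, adjusted p 0.150 in limma). This list was drawn up with earlier results of these arrays known, and a test of the difference between the 2 lists was not made.

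**Figure D5:**
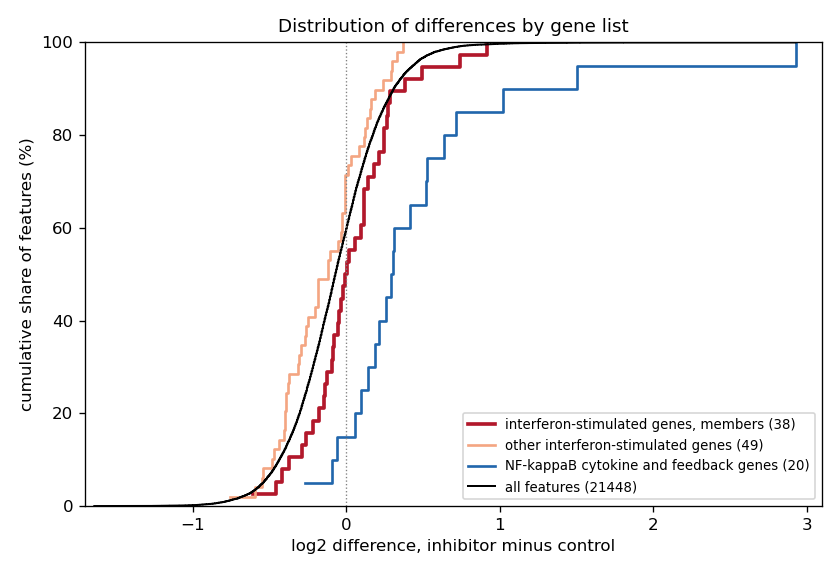
Cumulative share of features (percent, vertical) by log2 difference (inhibitor minus control, horizontal) for the 38 members (red), 49 other interferon-stimulated genes (orange), 20 NF-kappaB genes (blue) and all 21448 features (black). The red curve crosses 50% close to 0, and the blue curve lies to the right of the others with IL6 at 2.93.

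Markers of cells that could supply or answer to interferon were also read, and their part in the results above was not tested. Beside each count of markers that passed, 0.0513% of all features passed as higher and 0% as lower. Of 9 leukocyte markers 0 passed, 6 were higher and 3 lower, and their mean level was 4.86 and 4.96 log2 units in the inhibitor arrays and 4.82 and 4.87 in the control arrays. PTPRC, which marks all leukocytes, read 2.87 and 3.03 against 2.90 and 2.77, within the dimmest 25% of features. LYZ, another leukocyte marker, was dim as well. The remaining leukocyte markers were not dim: CD79A read 6.22 and 6.74 against 6.35 and 6.43, and NKG7 read 6.36 and 6.71 against 6.49 and 6.33. CD163 (0.465) and ITGAM (-0.46) had groups without overlap. Of 4 plasmacytoid dendritic cell markers CLEC4C and IL3RA were in the dimmest 25% of features, while GZMB read 6.53 and 7.03 against 6.77 and 6.86. TCF4, which many other cells express, read 7.59 and 7.68 against 8.26 and 8.04. The mean of these 4 was 4.95 and 5.07 in the inhibitor arrays and 5.11 and 5.06 in the control arrays.

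Of 5 endothelial markers 0 passed, against 0.0513% of all features as higher and 0% as lower. Of the 5, 3 were higher and 2 lower, and their median log2 difference was 0.045. Their mean was 5.96 and 5.86 log2 units in the inhibitor arrays and 5.98 and 6.01 in the control arrays. PECAM1 differed by 0.47, CLDN5 by 0.205, VWF by 0.045 and ERG by -0.065. The control mean of PECAM1, 3.795, lies in the dimmest 25% of features, so the size of its difference is uncertain. CDH5, the endothelial cadherin, read 7.01 and 7.03 against 8.13 and 8.06. Its difference of -1.075 (SE 0.140, adjusted p 0.101 in limma) was larger than that of any interferon-stimulated gene of the list. Of 5 fibroblast markers 0 passed, with a mean of 4.77 and 4.96 against 5.09 and 4.95, and PDGFRA differed by -0.585 (SE 0.145). The inhibitor mean of PDGFRA, 3.805, lies in the dimmest 25% of features, so the size of its difference is uncertain. Of 10 ovarian and epithelial carcinoma markers 0 passed, and 9 were lower in the inhibitor arrays, 7 of them without overlap. Their median difference was -0.28. Of all features 33.8% were lower without overlap, and the median difference was -0.07 over all features and -0.165 over those above the median level. WT1 differed by -0.555, the keratin KRT7 by -0.40, MUC16 by -0.385 and KRT8 by -0.09, while EPCAM, CDH1 and MSLN lie in the dimmest 25% of features. ABCB1, the drug efflux pump of multidrug-resistant lines, read 7.67 and 7.55 against 7.68 and 7.77. These markers were picked for mention after their values were seen, apart from ABCB1.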

How the data were processed

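Expression was measured on Affymetrix Human Clariom S arrays of total RNA, 2 per group. The authors deposited log2 expression values made with RMA (background correction, quantile normalization, probe summary) and, per the submitters' processing notes, Transcriptome Analysis Console 4.0. Their parameters and genome build are not given in the sources used here. The deposited values did not share 1 distribution across arrays. Their SD across features was 2.08 and 2.13 log2 units on the inhibitor arrays and 2.20 and 2.21 on the control arrays. The platform annotation named 17709 features with 1 symbol and left 3739 unnamed.

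The fit used limma 3.58.1 under R 4.3.3 (lmFit, eBayes, no block) over all 21448 features, with Benjamini-Hochberg adjustment, and the procedure was tested on simulated data. No filter was applied. The members, gene lists and settings were chosen with earlier results of these data known. All members could be named. Of each other list, up to 4 genes with the largest moderated statistic were named, plus a fixed set of pathway genes. The other 14 settings are under the closing heading. Replicate numbers 1 and 2 recur in both groups, but same-numbered arrays did not deviate together (r = 0.00579 across features), so arrays were not treated as pairs.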

Additional observations from a re-analysis of the deposited data

How the results depend on the processing

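Of the members, 0 passed an adjusted p of 0.05 in either direction with a robust prior, quantile normalization, cyclic loess or equal array medians. With a filter at the 25th percentile, which left 25 members, 0 passed as well. In these settings at most 0.174% of the features tested passed as higher and 0.0622% as lower. The mean of features per symbol left the member values as they were, since each member had a single feature. The count was 2 higher and 1 lower with the intensity trend, 1 higher and 0 lower with quantile normalization and trend together, and 1 higher and 1 lower of the 17 members above the median level. Of all features, 1.02% passed as higher and 6.09% as lower with the trend, 1.42% and 1.19% with both, and 1.34% and 8.07% above the median. The number of members with a higher mean was 12 of the 25 members left by the 25th percentile filter and 8 of the 17 above the median (33.1% and 25.5% of all features in these classes), and 6 of those 17 had groups without overlap, against 61.6% of all features there, counts that fell because fewer members remained. Leaving out 1 array gave 18 to 32 members without overlap, since 1 array overlaps less than 2, and 67.7% to 82.1% of all features. With the replicate block 0 members passed in either direction (lowest adjusted p 0.322). The median difference of the members ran from -0.0625 without inhibitor array 2 to 0.093 after cyclic loess. After quantile normalization, equal array medians and cyclic loess 5, 5 and 7 members changed sign, each from lower to higher, and 6, 6, 11 and 7 did without control array 1, control array 2, inhibitor array 1 and inhibitor array 2, none of them with an unadjusted p under 0.05 before or after. The NF-kappaB count of 2 became 7 with the trend, 10 with quantile normalization and trend and 5 above the median. It became 0 after quantile normalization and with the block, settings in which 0 of all features passed. Counts of the other interferon-stimulated genes became 0 higher and 6 lower with the trend and 0 and 4 above the median. For the negative regulators they were 1 higher and 2 lower in both of these settings and 2 and 1 with quantile normalization and trend. The cause of these changes was not tested. Fits without 1 array assume that the lone array varies like the other group, and there were no detection calls, so the 13 members in the dimmest 25% of features remain uncertain.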

Other observations

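Interferon-stimulated genes often sit side by side in the genome. Among protein-coding genes of the RefSeq annotation of GRCh38.p14, 9 pairs of measured members were direct neighbours, and 4 pairs had differences of the same sign while 5 had opposite signs. IFIT2 (0.92) and IFIT3 (0.245), OAS1 (0.495) and OAS3 (0.005), OAS3 and OAS2 (0.25), and MX2 (-0.285) and MX1 (-0.125) shared a sign. The pairs with opposite signs were SAMD9 (-0.605) and SAMD9L (0.055), IFI44L (0.285) and IFI44 (-0.215), IFIT1 (0.12) and IFIT5 (-0.175), CMPK2 (0.385) and RSAD2 (-0.035), and HERC6 (-0.05) and HERC5 (0.27). None of these genes passed an adjusted p of 0.05 in limma, so the signs are a description only.

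Differences also moved with the level of a feature. Over all features the median log2 difference was 0.0725 below the 25th percentile, -0.01 from there to the median and -0.165 above the median. The members gave 0.12 (13 genes), -0.0125 (8 genes) and -0.01 (17 genes) in the same classes. Above the median level 8 of 17 members (47.1%) had a higher mean in the inhibitor arrays, against 25.5% of all features in that class. After quantile normalization the medians of that class were 0.114 for the members and -0.00938 for all features.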
